A study of Mus musculus with 4 samples.

Results

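Untreated Mitf knock-in MEFs were compared with wild-type MEFs, that is, 2 of the 4 RNA-seq libraries of the study, with 1 library a side. MEFs are mouse embryonic fibroblasts, a mixed primary culture of connective tissue cells from dissociated embryos. The wild-type library, called MEF, came from cells at passage 3. The knock-in library, called Dox (-), came from cells at passage 5 that carried ROSA26-M2rtTA, which encodes the doxycycline-dependent activator, and 1 copy of Col1a1-TetO-Mitf, which encodes the melanocyte isoform of Mitf. A constantly active nuclear mCherry transgene also marked them. These cells had received no Dox. The knock-in line was 1 targeted clone of KH2 embryonic stem cells injected into blastocysts, and the MEFs were made from chimeric embryos, which also hold cells of the host. The study states that the mCherry and puromycin resistance markers served to purify transgenic cells from chimeric cultures, and whether the cells of this library were purified in that way is not given in the sources used here. Both cultures were grown in the same DMEM medium with serum. Genotype, passage, derivation and the individual culture differ together between the libraries and cannot be told apart. Values of the knock-in MEFs after 6 days of Dox, called Dox (+), are given beside them where useful, as a second culture of the same cells. In bulk RNA, fewer cells of a type and less RNA per cell cannot be told apart either.

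Each gene was represented by its exon with the highest RPKM, a read count scaled to exon length and to the number of aligned reads. This exon was chosen in each library separately, and where it is only a few bases long the RPKM overstates the level, since any overlapping read was counted. Genes with a level over 10 RPKM in either culture were tested, and a gene was called higher or lower when the levels differed more than 4-fold. Log2 fold changes are Dox (-) against MEF after adding 1 RPKM to both, which understates the change of low genes. No p-value is given because there is no replicate, and the difference between the libraries has no replicate check. Intervals are exact binomial 95% intervals of the read ratio on the exon with the highest value, and they cover counting error only. The RPKM values of low exons were whole multiples of 1 read at 45000000 aligned reads in MEF and in Dox (-), so depth was alike and 3 reads on an exon of 150 bp correspond to 0.444 RPKM in both. The study's own list of MEF levels per gene is not the set of values in the deposited MEF column, so every statement on MEF describes the deposited library with that name.

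Fibroblasts are known for secreting collagens, fibronectin, elastic fibres and the enzymes that remodel them, and those of different body sites keep different sets of Hox and other patterning genes. Cultures from whole embryos also hold other cells, among them macrophages, which carry Fc receptors and complement receptors, engulf debris and make lysozyme and chemokines. MITF is a basic helix-loop-helix factor of melanocytes and osteoclasts, and the melanocyte isoform starts from its own promoter.

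In all, 13234 genes were tested. Dox (-) was higher for 1093 genes, 8.26% of those tested, and lower for 160 genes, 1.21%, so that 9.47% were called either way. The middle of the distribution was nearly level, with a median log2 fold change of 0.0144 and quartiles of -0.461 and 0.625. The 95th percentile lay at 2.91 and the 5th at -1.12, so the far differences were mostly on the side of Dox (-). Levels apart by more than 16-fold were found for 522 genes higher in Dox (-) and 41 lower. The called higher genes were low in MEF, with a median of 2.53 RPKM there against 44.01 RPKM in Dox (-), and 81 of them were listed at 0 in MEF. The called lower genes had a median of 43.3 RPKM in MEF and 4.48 RPKM in Dox (-). Of the called genes with a proper symbol, 971 were higher and 135 lower. Exons with at least 10 reads in either library are called read-bearing. At least 2 in 3 of these, and no fewer than 2 exons, differed more than 4-fold in the same direction for 857 of the higher and 97 of the lower.

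**Figure D1:**
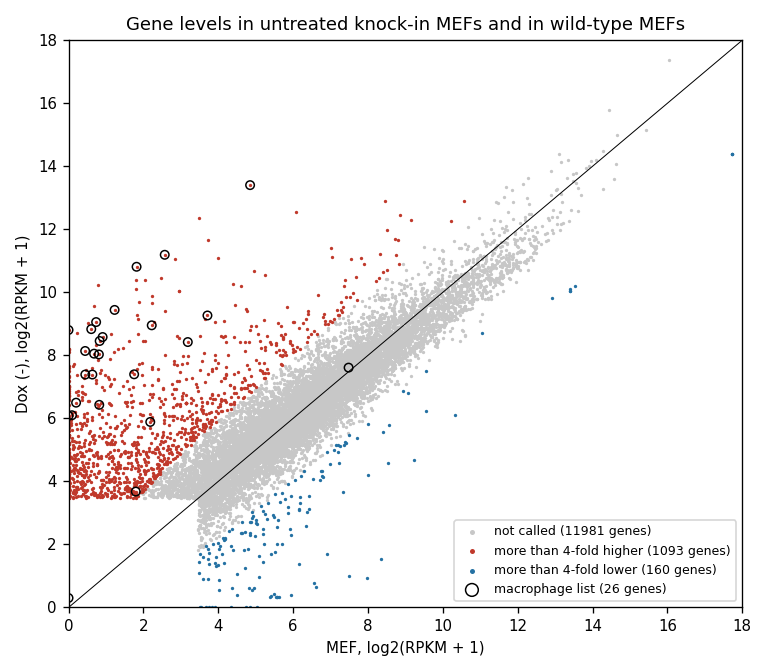
Level of each tested gene in MEF (x axis) and Dox (-) (y axis), both as log2(RPKM + 1), 1 library each. Red points are the 1093 genes more than 4-fold higher in Dox (-), blue points the 160 lower, gray points the 11981 not called, the line marks equal levels, and open circles are the 26 genes of the macrophage list, 24 of them red.

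Mitf was read first, since it is the gene carried by the knock-in. It had 1.52 RPKM in MEF and 30.8 RPKM in Dox (-) (log2 fold change 3.66), and the call was lost with all exons summed, where the level stayed under 10 RPKM. In Dox (+) the level was 1544 RPKM. On the exon with the highest value, 5 reads were found in MEF and 104 in Dox (-), a ratio of 20.8 (8.63 to 65.4). Of the 14 exon positions of Mitf with at least 10 reads in either library, 13 were more than 4-fold higher in Dox (-). The exception was the long form of the last exon, at chromosome 6 from 98017774 to 98021349 in mm10, with 1.52 RPKM in MEF and 5.57 RPKM in Dox (-). Mitf thus had reads in the knock-in cells without Dox along its whole length. The exons at the 5′ end of the gene were among them. The first, from 97807058 to 97807287, had 0 reads in MEF, 31 in Dox (-) and 32 in Dox (+). The exon from 97929799 to 97929933 had 0, 16 and 26 reads. The later exons reached at most 30.8 RPKM in Dox (-) and 1544 RPKM in Dox (+). Of the other genes of the melanocyte list, Ednrb, the endothelin receptor of the neural crest, and Gpnmb, a glycoprotein of melanosomes and macrophages, were also called higher. Ednrb had 0.593 RPKM in MEF and 26.7 RPKM in Dox (-). Gpnmb had 47.8 RPKM in MEF and 522 RPKM in Dox (-). The pigment enzymes and most melanosome proteins were near 0 in both libraries. Tyr had 0.0118 and 0 RPKM, Dct 0 and 0.798 RPKM, and Mlana 0.585 and 0.3899 RPKM in MEF and Dox (-). Slc24a5, an ion exchanger, was the list's tested gene without a call, with 59.9 RPKM in MEF and 44.5 RPKM in Dox (-). Of the 17 melanocyte genes, 13 did not reach 10 RPKM in either library and the median log2 fold change was 0.02.

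The labelled cell type was checked against 16 fibroblast markers. All 16 exceeded 10 RPKM in Dox (-), and 14 of them did in MEF, where Fap and Lum were below. The summed level of the list was 72034 RPKM in MEF and 104688 RPKM in Dox (-). Structural genes of the mesenchyme were high in both. Col1a1, the main chain of type I collagen, had 4958 RPKM in MEF and 12562 RPKM in Dox (-), and Fn1, fibronectin, had 12146 RPKM in MEF and 14116 RPKM in Dox (-). Vim, the intermediate filament vimentin, had 24417 RPKM in MEF and 12302 RPKM in Dox (-). Of the 16 markers, 5 were called higher in Dox (-) and 0 lower. Fap, a membrane protease of activated fibroblasts, had 1.502 RPKM in MEF and 296 RPKM in Dox (-). Its highest exon, of 6 bp, had 0 reads in MEF and 80 in Dox (-), at least 26.7-fold. The log2 fold change of Fap was 6.89, and 4.76 with exons of at least 100 bp only. Dcn, the small proteoglycan decorin that binds collagen fibrils, had 30.02 RPKM in MEF and 1637 RPKM in Dox (-), and Lum, lumican of the same family, had 6.07 RPKM in MEF and 226 RPKM in Dox (-). Postn, the matrix protein periostin, had 1524 RPKM in MEF and 7703 RPKM in Dox (-), and Pdgfra, the receptor for platelet-derived growth factor, had 18.9 RPKM in MEF and 86.6 RPKM in Dox (-). In Dox (+) the same 5 genes had 109.8, 719.5, 44.8, 1400.4 and 48.2 RPKM. The median log2 fold change of the 16 markers was 1.32.

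The largest rises were in genes known from macrophages and other myeloid cells. The 10 named genes with the largest log2 fold change were Fcrls, Tyrobp, Lyz1, Fcgr2b, Ms4a7, Fcer1g, Lyz2, Clec12a, Fcgr4 and Fcgr3. Fcrls, a receptor of the Fc receptor-like family in microglia and other tissue macrophages, had 0.719 RPKM in MEF and 1199 RPKM in Dox (-), with 0 and 1133 reads on its highest exon, at least 378-fold. Its log2 fold change was 9.45, and 7.42 with exons of at least 100 bp only. Tyrobp encodes the adaptor DAP12, through which many myeloid receptors signal. Its level was 2.53 RPKM in MEF and 1795 RPKM in Dox (-), with 3 and 2181 reads, a ratio of 727 (interval 248 to 3528). Fcer1g, the common signaling chain of the Fc receptors, had 4.94 RPKM in MEF and 2337 RPKM in Dox (-). Fcgr2b, Fcgr3 and Fcgr4 encode Fc receptors for IgG. Fcgr2b had 0.617 RPKM in MEF and 753 RPKM in Dox (-), Fcgr3 had 0.667 RPKM in MEF and 531 RPKM in Dox (-), and Fcgr4 had 0.174 RPKM in MEF and 419 RPKM in Dox (-). Ms4a7, a membrane protein of tissue macrophages, was listed at 0 in MEF and had 446 RPKM in Dox (-), at least 381-fold on its highest exon. Clec12a, an inhibitory lectin of myeloid cells, had 0.427 RPKM in MEF and 519 RPKM in Dox (-). Lyz1 and Lyz2 encode lysozyme, which cleaves bacterial cell walls. Lyz2 had 27.8 RPKM in MEF and 10820.0 RPKM in Dox (-), with 99 and 38465 reads (interval of the ratio 319 to 478), and Lyz1 had 10.1 RPKM in MEF and 5267 RPKM in Dox (-). The lysozyme pair and the Fc receptors are close copies of each other, and reads shared between copies leave their separate levels uncertain. In every one of the 10, all exons with at least 10 reads were more than 4-fold higher in Dox (-). The Dox (+) library of the same line had between 0.656 and 379 RPKM of these 10 genes.

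Over the macrophage list, 24 of 26 genes were called higher, 0 lower, 1 was tested and not called, and 1 was below 10 RPKM in both, against 8.26% called higher over all tested genes. The median log2 fold change was 6.85, against 0.0144 over all tested genes. The median level of the list in MEF was 0.773 RPKM, so most members passed the 10 RPKM threshold through Dox (-) only, which favors a call. The counts of every further list stand against the same 8.26% higher and 1.21% lower of the tested genes, and they are descriptions without a test. Summed over the list, MEF had 253 RPKM, Dox (-) 21141 RPKM and Dox (+) 1041 RPKM. Of the sum in MEF, 178 RPKM came from Cx3cr1. The MEF library had Ms4a7, Fcgr1 and Cd163 at 0. Genes that define the lineage were called along with the effector genes. Spi1, the transcription factor PU.1 that macrophages need to form, had 0.364 RPKM in MEF and 167 RPKM in Dox (-). Csf1r, the receptor for the growth factor on which macrophages depend, had 8.102 RPKM in MEF and 342 RPKM in Dox (-). Ptprc, the pan-leukocyte surface phosphatase CD45, had 0.0655 RPKM in MEF and 67.6 RPKM in Dox (-). Adgre1, the macrophage surface protein F4/80, had 0.605 RPKM in MEF and 265 RPKM in Dox (-), and Itgam, an integrin that binds complement fragments, had 0.15 RPKM in MEF and 89.4 RPKM in Dox (-). C1qa, C1qb and C1qc, the chains of the first complement component, had 455, 350.0 and 260.2 RPKM in Dox (-) and under 1 RPKM in MEF. Mrc1, the mannose receptor, had 0.8801 RPKM in MEF and 382 RPKM in Dox (-). Csf1, which encodes the growth factor itself, was not called, with 259.5 RPKM in MEF and 896 RPKM in Dox (-). Cd163, a scavenger receptor for hemoglobin, had 0 and 0.231 RPKM. Cx3cr1, the fractalkine receptor, differed little, with 178 RPKM in MEF and 194 RPKM in Dox (-).

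**Figure D2:**
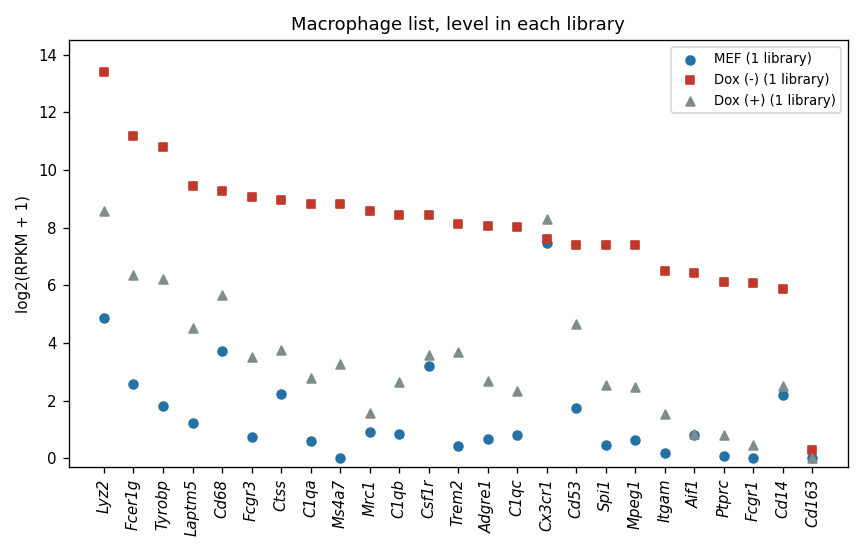
Level of 25 of the 26 genes of the macrophage list in MEF (circles), Dox (-) (squares) and Dox (+) (triangles), as log2(RPKM + 1) on the y axis, 1 library each, ordered by the level in Dox (-). The Dox (-) value lies above the MEF value in all 25 genes shown, and in Cx3cr1 by 0.13 only.

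Promoters of these genes were read for the core of the PU.1 site, because Spi1 is itself in the list. The 250 bases before the start of each gene came from RefSeq on GRCm38.p6, and 19 of the 26 list members had an entry. The letters GAGGAA, on either strand, were present for 13 of the 19, against 25.9% of all 27025 genes with an entry and 23.3% of the 32851 promoters. The longer form GAGGAAGT, which contains the first, was present for 1 of the 19 and 2.79% of all genes. In the fibroblast list, 3 of 9 genes with an entry had GAGGAA. A match is a description of the letters and not of binding. The promoters of Fcgr3 (the matched 1 of its 2 RefSeq promoters, chr1:171059404-171059653, minus strand) and Laptm5 (chr4:130913066-130913315, plus strand) are shown because these were the matched list members with the largest log2 fold changes. Laptm5, a lysosomal membrane protein of leukocytes, had 1.35 RPKM in MEF and 694 RPKM in Dox (-). Both are written 5′ to 3′ along the gene's strand, ending at the base before the start, with the match in capitals, which on this strand reads as the reverse complement TTCCTC.
Fcgr3: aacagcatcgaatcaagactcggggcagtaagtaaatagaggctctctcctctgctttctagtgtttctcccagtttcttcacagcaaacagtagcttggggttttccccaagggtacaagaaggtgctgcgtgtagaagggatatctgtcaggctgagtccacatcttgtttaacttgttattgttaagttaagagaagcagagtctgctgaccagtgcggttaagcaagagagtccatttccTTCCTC
Laptm5: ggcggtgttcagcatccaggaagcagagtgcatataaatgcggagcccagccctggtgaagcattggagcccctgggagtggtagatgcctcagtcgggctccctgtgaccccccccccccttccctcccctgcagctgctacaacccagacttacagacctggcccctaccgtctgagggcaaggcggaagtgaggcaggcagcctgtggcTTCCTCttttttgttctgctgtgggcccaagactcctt
The match begins 6 bases before the start in Fcgr3 and 38 bases before it in Laptm5.

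Markers of the other blood lineages were mostly near 0. Of the 23 genes of that list, 15 were among the listed exons, 3 exceeded 10 RPKM and 2 were called higher, and the summed level was 70.8 RPKM in MEF and 405 RPKM in Dox (-). Pf4, a chemokine of platelets that macrophages of the embryo make as well, was listed at 0 in MEF and had 94.9 RPKM in Dox (-). Ly6g, which lies among close copies on chromosome 15 and can share reads with them, had 62.3 RPKM in MEF and 295 RPKM in Dox (-). Genes of T cells, B cells and mast cells were near 0 in Dox (-). Cd3g had 0.268 RPKM, Cd79b 0.0791 RPKM and Cpa3 0.977 RPKM. Among 10 osteoclast genes, with summed levels of 72.7 and 358 RPKM in MEF and Dox (-), 3 were called higher. Mmp9, a gelatinase, had 0.317 RPKM in MEF and 27.1 RPKM in Dox (-), Ctsk, the collagen-degrading cathepsin K, had 18.2 RPKM in MEF and 259 RPKM in Dox (-), and Tnfrsf11a, the receptor RANK, had 3.77 RPKM in MEF and 20.1 RPKM in Dox (-). The calls of Mmp9 and Tnfrsf11a were lost with all exons summed. The genes most restricted to osteoclasts stayed low, with Calcr at 0.238 and Ocstamp at 0.0444 RPKM in Dox (-).

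Many of the called genes lay side by side. Along the chromosomes, 48 runs of at least 3 neighboring tested genes were called higher, with 240 genes in all, and 7 runs were called lower, with 39 genes. Many were families of related genes. Coordinates here are those of GENCODE on mm10. On chromosome 6 from 122921848 to 123289870, 8 neighbors from Clec4a1 to Clec4e, which encode lectin receptors of myeloid cells, had at most 0.823 RPKM in MEF and between 17.9 and 184.6 RPKM in Dox (-). The highest was Clec4d with 0.823 RPKM in MEF and 185 RPKM in Dox (-). On chromosome 11 from 114890041 to 115133992, 9 Cd300 genes, which encode paired activating and inhibitory receptors, ranged from 15.97 to 215.6 RPKM in Dox (-). Cd300c2 had 0.184 RPKM in MEF and 116 RPKM in Dox (-). On chromosome 19, 7 neighbors from Ms4a7 to Ms4a6d had at most 0.329 RPKM in MEF and at least 41.0 RPKM in Dox (-). The Pir and Lilr family of paired receptors, chromosome 7 from 3711409 to 3915503, formed a run of 9, some of them annotated as pseudogenes. Pirb had 2.47 RPKM in MEF and 1093 RPKM in Dox (-). On chromosome 13, 5 genes of the Naip family, which encodes sensors of bacterial proteins inside the cell, were called higher. One of them, Naip3, is annotated as a pseudogene. Naip2 had 37.04 RPKM in MEF and 1489 RPKM in Dox (-), on an exon of 6 bp with 10 and 402 reads. Naip5 had 4.27 RPKM in MEF and 188 RPKM in Dox (-), on an exon of 52 bp with 10 and 440 reads. Within such families reads can be shared between copies, so a run counts members that are not independent.

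Other runs held other families. The Xlr cluster on the X chromosome from 73074345 to 73292976, genes related to a lymphocyte-regulated nuclear protein, formed a run of 11 genes listed at 0 in MEF. Xlr3b had 286 RPKM without Dox and 259.7 RPKM with it, and Xlr5a had 293 and 275 RPKM. The number of reads on the highest exon of Xlr5a was 0 in MEF, 316 in Dox (-) and 290 in Dox (+). Gm14685, DXBay18, Xlr5b and Spin2d of this run all had 315 reads in Dox (-) and 290 in Dox (+). Reads may thus be shared over much of the run, so it is no count of independent genes. The knock-in cultures were close to each other in Xlr3b and Xlr5a, while MEF had no read. They were further apart in Xlr4a, with 42.6 RPKM in Dox (-) and 10.6 RPKM in Dox (+). The Serpina3 cluster on chromosome 12, which encodes inhibitors of serine proteases made in inflammation, stood in a run of 16 with 2 Ifi27l2 genes. Some members, Serpina3h among them, are annotated as pseudogenes. On their highest exons, Serpina3a and Serpina3b both had 376 reads in Dox (-), and Serpina3k and Serpina3m both had 2816. Reads may thus be shared here too, so the run is no count of independent genes. Serpina3n had 2.65 RPKM in MEF and 835 RPKM in Dox (-) and 299 RPKM in Dox (+). Of the Ugt1a genes, which encode enzymes that add glucuronic acid, 8 had the same 7.83 RPKM in MEF and 87.9 RPKM in Dox (-), since they share their last exons. On chromosome 17, H2-Q2, H2-Q3, H2-Q4 and H2-Q5, of the non-classical MHC class I family, formed a run. H2-Q3 is annotated as a pseudogene and H2-Q5 as a polymorphic pseudogene. H2-Q5 had 186 RPKM in MEF and 2114 RPKM in Dox (-), on an exon of 22 bp. In Dox (-) the highest exons of this run had 2302, 2207, 2201 and 2093 reads, in that order. Reads may thus be shared among these genes, and their separate levels are uncertain. On chromosome X, Nkrf, which encodes a repressor, and Sept6, a septin, were neighbors in a run of 4, with Sept6 at 53.97 RPKM in MEF and 407 RPKM in Dox (-) and 710.1 RPKM in Dox (+). On their highest exons, Gm14542 and Sowahd of this run both had 768 reads in Dox (-), Nkrf 804 and Sept6 825. The same reads may thus be counted on several of these genes. Of the 14 read-bearing exons of Sept6, 7 were more than 4-fold higher, and its level is uncertain.

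Genes of inflammation and host defense were read from 4 lists. Of the 27 chemokines and cytokines, 15 were called higher and 0 lower, with a median log2 fold change of 3.20, while 5 of the 27 did not reach 10 RPKM. They fall into those near 0 in MEF and those already present. Ccl3 and Ccl6, attractants of macrophages and monocytes, were listed at 0 in MEF and had 36.3 and 62.96 RPKM in Dox (-). Ccl4 had 0.287 RPKM in MEF and 53.3 RPKM in Dox (-). Ccl2, which draws monocytes out of the blood, had 26.2 RPKM in MEF and 674 RPKM in Dox (-), with 139 and 3578 reads (interval of the ratio 21.7 to 30.7), and its neighbor Ccl7 had 28.6 RPKM in MEF and 492 RPKM in Dox (-). Cxcl14, a chemokine of connective tissue and epithelium, had 2.53 RPKM in MEF and 624 RPKM in Dox (-) and remained at 703 RPKM in Dox (+). Il6, a cytokine of the acute phase, had 1.33 RPKM in MEF and 42.1 RPKM in Dox (-), and Il33, a nuclear alarm cytokine of stromal cells, had 3.704 RPKM in MEF and 45.3 RPKM in Dox (-). Both were as high or higher in Dox (+), at 69.6 and 60.6 RPKM. Cxcl12, the main chemokine of fibroblasts, was not called, with 4135 RPKM in MEF and 2798 RPKM in Dox (-). Il1b and Csf2 stayed under 10 RPKM in both libraries, at 2.72 and 0.215 RPKM in Dox (-). Several of these genes, and of the complement and interferon genes, are made by macrophages, whose list had the summed levels given for it, and the part of those cells in the values was not tested.

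Of 17 complement genes measured, 8 were called higher and 0 lower. The receptors C3ar1 and C5ar1, by which myeloid cells sense cleaved complement, had 0.499 RPKM in MEF and 47.2 RPKM in Dox (-) and 0.171 RPKM in MEF and 28.5 RPKM in Dox (-), in that order. C3, the central component, had 5.82 RPKM in MEF and 134 RPKM in Dox (-), and Cfp, properdin, had 6.702 RPKM in MEF and 145 RPKM in Dox (-). Cd55, which protects the cell's own surface from complement, had 23.3 RPKM in MEF and 1187 RPKM in Dox (-) and kept 591 RPKM in Dox (+). Serping1, the inhibitor of C1, had 18.8 RPKM in MEF and 132 RPKM in Dox (-). The early proteases of the pathway were high in both libraries and not called, as C1s1 with 527 RPKM in MEF and 1167 RPKM in Dox (-) and C1ra with 397 RPKM in MEF and 553 RPKM in Dox (-).

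Of 25 interferon response genes, 21 were tested, 4 were called higher and 0 lower. A log2 fold change above 0 was found for 22 of the 25, and the median was 1.41. Rsad2, the antiviral enzyme viperin, had 0.274 RPKM in MEF and 20.2 RPKM in Dox (-), and Oas1a, which makes the second messenger that activates RNase L, had 11.5 RPKM in MEF and 141 RPKM in Dox (-). Irf7, a transcription factor that amplifies interferon production, had 4.14 RPKM in MEF and 22.6 RPKM in Dox (-), and Ifit1, which binds foreign RNA ends, had 3.04 RPKM in MEF and 13.6 RPKM in Dox (-). Factors that carry the interferon signal differed little. Stat2 had 79.01 RPKM in MEF and 60.5 RPKM in Dox (-), and Irf9 had 53.5 RPKM in MEF and 63.7 RPKM in Dox (-). The calls of Rsad2 and Irf7 came from short exons and were lost when only exons of at least 100 bp were used. Of 15 antigen presentation genes, 13 had a log2 fold change above 0 with a median of 1.34, but only the class II chain H2-Eb1 was called, with 0.394 RPKM in MEF and 10.2 RPKM in Dox (-), a level at the threshold, and its call was lost with all exons summed. B2m, the light chain of class I, had 9204 RPKM in MEF and 8949 RPKM in Dox (-).

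The interferon-stimulated response element was searched as GAAA, any 2 bases and GAAA in the same 250-base promoters, on both strands. It was present for 9 of the 18 list members with an entry, against 3.46% of all genes and 2.98% of all promoters. Among the 4 called genes, Rsad2, Oas1a and Ifit1 had it. Of the 9 genes with the letters, 6 were not called, Stat2 and Gbp2 among them. The promoters of Rsad2 (chr12:26456453-26456702, minus strand) and Oas1a (chr5:120907526-120907775, minus strand) are shown because these had the largest log2 fold changes of the list. Capitals mark the match, which in Rsad2 is on the opposite strand and in Oas1a is 2 overlapping copies.
Rsad2: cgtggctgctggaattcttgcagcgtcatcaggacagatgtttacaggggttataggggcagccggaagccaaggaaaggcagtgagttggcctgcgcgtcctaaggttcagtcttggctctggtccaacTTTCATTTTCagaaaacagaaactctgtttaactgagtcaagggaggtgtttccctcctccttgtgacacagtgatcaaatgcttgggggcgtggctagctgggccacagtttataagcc
Oas1a: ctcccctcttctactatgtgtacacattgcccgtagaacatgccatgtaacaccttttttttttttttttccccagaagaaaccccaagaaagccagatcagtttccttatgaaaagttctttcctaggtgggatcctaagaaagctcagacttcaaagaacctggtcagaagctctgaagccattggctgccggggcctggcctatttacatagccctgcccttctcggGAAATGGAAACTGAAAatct
The match starts 120 bases before the start of Rsad2, and the copies in Oas1a begin 20 and 14 bases before its start.

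**Figure D3:**
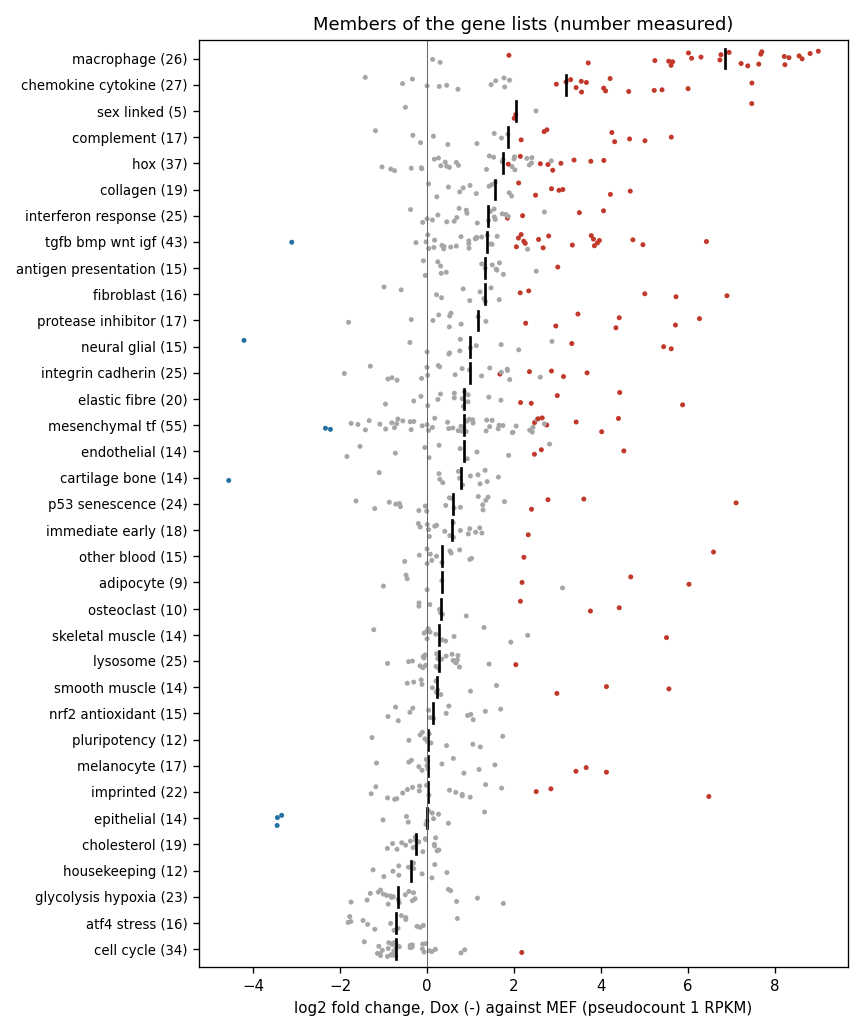
Log2 fold change, Dox (-) against MEF with a pseudocount of 1 RPKM (x axis), of each measured member of the 35 gene lists (y axis, number of members measured in brackets, spread within a row for legibility). Red and blue points are members called higher and lower, gray points are not called or not tested, and the black bar is the median, from -0.72 for the cell cycle to 6.85 for macrophages.

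The extracellular matrix was read from lists of elastic fibre genes, collagens and proteases. Of 20 elastic fibre genes, all tested, 5 were called higher and 0 lower. Eln, tropoelastin itself, had 20 RPKM in MEF and 1229.6 RPKM in Dox (-), with 27 and 1660 reads (interval of the ratio 42.1 to 93.6), and 7.58 RPKM in Dox (+). Mfap4, a microfibril-associated protein, had 17.2 RPKM in MEF and 390.4 RPKM in Dox (-), and Ltbp2, which binds fibrillin, had 239 RPKM in MEF and 1905 RPKM in Dox (-). Fbln1, a fibulin, had 68.2 RPKM in MEF and 306 RPKM in Dox (-), and Emilin2, an elastin interface protein, had 12.9 RPKM in MEF and 72.2 RPKM in Dox (-). The other 15 genes were not called. Fbn1, fibrillin, had 348 RPKM in MEF and 1131 RPKM in Dox (-), Lox, the crosslinking oxidase, had 3439 RPKM in MEF and 6027 RPKM in Dox (-), and Fbln5, which guides elastin to microfibrils, had 1914 RPKM in MEF and 1547 RPKM in Dox (-). Elastin was thus the member furthest apart, at a log2 fold change of 5.87 against a median of 0.85.

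The collagen list held 19 collagens outside the fibroblast list. All 19 had a log2 fold change above 0, 7 were called higher and 0 lower, and the median was 1.57. Col2a1 stood in the cartilage and bone list and was not among the 19. It was called lower, with 599 RPKM in MEF and 24.5 RPKM in Dox (-). The paired chains of basement membrane collagen differed alike. Col4a1 had 571 RPKM in MEF and 4974 RPKM in Dox (-), and Col4a2 had 443 RPKM in MEF and 3224 RPKM in Dox (-). These genes share a promoter region and run in opposite directions, and each had all of its read-bearing exons more than 4-fold higher. Col15a1, a collagen next to basement membranes, had 4.35 RPKM in MEF and 98.2 RPKM in Dox (-), Col24a1, a fibrillar collagen of the embryo, had 0.494 RPKM in MEF and 37.04 RPKM in Dox (-), and Col14a1, which binds collagen fibrils, had 25.2 RPKM in MEF and 146 RPKM in Dox (-). Col11a1 and Col7a1 differed little, with log2 fold changes of 0.22 and 0.04.

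Among 17 proteases and inhibitors of matrix, 7 were called higher and 0 lower. Mmp3, Mmp10, Mmp12 and Mmp13 are neighbors on chromosome 9 and stand in 1 run with Mmp1a. Mmp3, stromelysin, had 1.07 RPKM in MEF and 158 RPKM in Dox (-), and Mmp13, a collagenase, had 0.686 RPKM in MEF and 87.2 RPKM in Dox (-). Mmp10 had 0.139 RPKM in MEF and 22.1 RPKM in Dox (-). The call of Mmp10 was lost with all exons summed. Dox (+) had 201, 72.3 and 76.7 RPKM of these 3 genes. Timp3, an inhibitor held in the matrix, was called higher too, with 362 RPKM in MEF and 4019.5 RPKM in Dox (-). Mmp2, a gelatinase, and its inhibitor Timp2 differed least, with log2 fold changes of 0.13 and 0.27. Of 25 integrins and cadherins, 20 were tested and 5 called higher. Itga4, an integrin chain of leukocytes and neural crest, had 1.15 RPKM in MEF and 26.6 RPKM in Dox (-), and lost the call with all exons summed. Itga7 and Itga6, laminin receptor chains, had 7.96 RPKM in MEF and 64 RPKM in Dox (-) and 19.1 RPKM in MEF and 102 RPKM in Dox (-), in that order. Itga5 and Itgb1, the fibronectin receptor, were below the call, with log2 fold changes of 1.71 and 0.81.

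Growth factors and their binding proteins held the most calls by number after the macrophage list, in a long list. Of their 35 tested genes, 17 were called higher. Among the lists with at least 15 tested genes, the share was larger for macrophage genes (24 of 25 tested), chemokines and cytokines (15 of 22), Hox genes (9 of 15) and complement (8 of 15). Some lists with fewer tested genes had larger shares too, as the melanocyte list (3 of 4) and the endothelial list (3 of 5). In the list of TGF-β, BMP, Wnt and IGF signaling, 17 of 43 genes were called higher and 1 lower, with a median log2 fold change of 1.38. The IGF system had calls in both directions. Igf1 had 31.4 RPKM in MEF and 488 RPKM in Dox (-), and Igf2, the imprinted fetal growth factor, had 66.7 RPKM in MEF and 6022 RPKM in Dox (-), with 12 and 1084 reads on its highest exon (interval of the ratio 51.5 to 175). That exon has 4 bp, and the log2 fold change of Igf2 was 6.48, or 5.01 with exons of at least 100 bp only. Of the binding proteins that hold IGFs outside the cell, Igfbp3 had 14.8 RPKM in MEF and 2173 RPKM in Dox (-) (log2 fold change 7.10), and Igfbp5 had 3.13 RPKM in MEF and 353 RPKM in Dox (-). Igfbp2 went the other way, with 7741 RPKM in MEF and 896 RPKM in Dox (-) (MEF over Dox (-), interval 8.41 to 8.89). Igfbp4 was level, with 414 RPKM in MEF and 407 RPKM in Dox (-). The receptor Igf1r had 113 RPKM in MEF and 94.2 RPKM in Dox (-). Dox (+) had 1653 RPKM of Igf2, 180.3 of Igfbp3 and 776 of Igfbp2. The family was therefore mixed, with Igf1, Igf2, Igfbp3 and Igfbp5 higher in Dox (-) and Igfbp2 lower.

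Secreted antagonists and ligands were both among the other called genes. Grem1, which blocks BMPs, had 33.4 RPKM in MEF and 347 RPKM in Dox (-). Sfrp1, Sfrp2 and Sfrp4, which bind Wnts, had 714, 126 and 65.6 RPKM in Dox (-) against 25.9, 20.6 and 3.704 RPKM in MEF. Among the ligands, Wnt4 had 0.168 RPKM in MEF and 14.98 RPKM in Dox (-), Wnt2 had 3.19 RPKM in MEF and 28.1 RPKM in Dox (-), and Inhba, the activin subunit, had 27.7 RPKM in MEF and 446 RPKM in Dox (-). The call of Wnt4 was lost with all exons summed. Tgfb1, which drives fibroblasts to make matrix, had 65.3 RPKM in MEF and 283 RPKM in Dox (-), close to the 4-fold line, and its call was lost on rescaling, that is, after giving the MEF and Dox (-) libraries the same median. Bmp4 was level, with 45.5 RPKM in MEF and 46.8 RPKM in Dox (-).

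Hox genes were read by cluster and by number, as a description. The 37 measured Hox genes specify position along the body axis, and 15 of them were tested. Of these, 9 were called higher and 0 lower. By cluster, the median log2 fold change was -0.12 over 11 Hoxa genes, 2.11 over 8 Hoxb, 2.40 over 9 Hoxc and 2.0 over 9 Hoxd genes. All 26 genes of the Hoxb, Hoxc and Hoxd clusters were above 0. In the Hoxa cluster, Hoxa2 to Hoxa5 and Hoxa7 were below 0, and Hoxa6, Hoxa9, Hoxa10, Hoxa11 and Hoxa13 above. By number within the cluster, 22 of the 23 genes numbered 6 to 13 were above 0 with a median of 2.0, and 8 of the 9 tested were called higher. Of the 14 genes numbered 1 to 5, 9 were above 0 with a median of 0.38, and 1 of the 6 tested was called higher. All 9 called Hox genes had at most 3.72 RPKM in MEF and passed the 10 RPKM threshold through Dox (-) only, which favors a call. The counts of calls among tested genes therefore partly restate that threshold. Hoxc6 had 0.697 RPKM in MEF and 27.4 RPKM in Dox (-), Hoxb9 2.63 RPKM in MEF and 29.6 RPKM in Dox (-), and Hoxa10 1.11 RPKM in MEF and 14.6 RPKM in Dox (-). At the other end, Hoxa7 had 21.7 RPKM in MEF and 10.1 RPKM in Dox (-), and Hoxa2 17.7 RPKM in MEF and 9.46 RPKM in Dox (-). These are low levels, and 22 of the 37 stayed under 10 RPKM in both libraries. With all exons of a gene summed, Hoxa10, Hoxb6, Hoxb7, Hoxb8, Hoxc4 and Hoxd8 no longer met the threshold for a call.

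**Figure D4:**
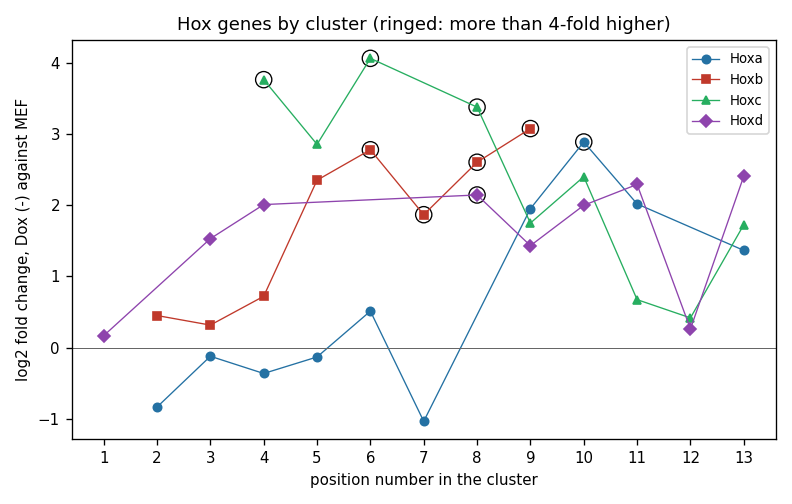
Log2 fold change, Dox (-) against MEF, of 36 of the 37 measured Hox genes (y axis) by their number within the cluster (x axis), with 1 line a cluster. Ringed points are the 9 genes called higher. Hoxa2 to Hoxa5 and Hoxa7 lie below 0, and all Hoxb, Hoxc and Hoxd genes above it.

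Of 55 other transcription factors of mesenchyme, 7 were called higher, 2 lower, and 30 stayed under 10 RPKM in both. Wt1, a factor of the mesothelium, had 0.517 RPKM in MEF and 31.01 RPKM in Dox (-). Barx1, known from stomach mesenchyme and jaw, had 0.0654 RPKM in MEF and 16.2 RPKM in Dox (-), and Shox2, a limb and palate factor, had 1.59 RPKM in MEF and 26.9 RPKM in Dox (-). Prrx1, which marks limb and head mesenchyme, had 59.8 RPKM in MEF and 336 RPKM in Dox (-). The calls of Wt1 and Barx1 were lost with all exons summed. These 4 genes had 31.2, 18.98, 26.5 and 474 RPKM in Dox (+). Lower in Dox (-) were Foxp2, with 54.3 RPKM in MEF and 9.95 RPKM in Dox (-), and Foxd1, a factor of kidney stroma, with 31.1 RPKM in MEF and 5.88 RPKM in Dox (-). Tbx15, a factor of trunk mesenchyme, was not called, with 309 RPKM in MEF and 122 RPKM in Dox (-). Factors of mesenchyme in general were split. Twist2 and Zeb2 were called higher. Twist2 had 8.85 RPKM in MEF and 56.8 RPKM in Dox (-), and Zeb2 had 16.7 RPKM in MEF and 109.8 RPKM in Dox (-). Twist1, Prrx2 and Snai1 were not called. Twist1 had 128 RPKM in MEF and 79.7 RPKM in Dox (-), Prrx2 184 RPKM in MEF and 255 RPKM in Dox (-) and Snai1 35.3 RPKM in MEF and 67.8 RPKM in Dox (-).

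The largest falls were those of Cubn, Cnmd, Klra7, Klra3, Klra8, Klra4, Klra9, Klra10, Stk32b and Klra6. Cubn, cubilin, the receptor for vitamin B12 bound to intrinsic factor, had 325 RPKM in MEF and 1.91 RPKM in Dox (-), with 570 and 0 reads on its highest exon, at least 190.0-fold lower. Of its 67 read-bearing exons, 66 were more than 4-fold lower. Its neighbor Trdmt1, an RNA methyltransferase, had 255.6 RPKM in MEF, 17.6 RPKM in Dox (-) and 22.4 RPKM in Dox (+). Cnmd, chondromodulin, which keeps vessels out of cartilage, had 178 RPKM in MEF and 1.001 RPKM in Dox (-), with 1334 and 4 reads. The cartilage collagen Col2a1 was lower too, with 599 RPKM in MEF and 24.5 RPKM in Dox (-), and all of its 56 read-bearing exons were more than 4-fold lower. It was the only called member among 14 cartilage and bone genes, of which 12 were above 0 with a median of 0.78. Sox9, the factor that drives Col2a1, was not called, with 23.2 RPKM in MEF and 10.3 RPKM in Dox (-), nor was Spp1, osteopontin, which had 67770.4 RPKM in MEF and 170800.0 RPKM in Dox (-). Stk32b, a kinase, had 43.7 RPKM in MEF and 0.342 RPKM in Dox (-).

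The Klra genes encode the Ly49 receptors of natural killer cells and stand in a run of 13 lower neighbors, 11 of them Klra genes or pseudogenes, on chromosome 6 from 129972380 to 130477028. Klra4 had the highest level, with 119 RPKM in MEF and 2.22 RPKM in Dox (-), and Klra7 had 96.9 RPKM in MEF and 0.5698 RPKM in Dox (-). These are near copies of one another that share reads, so the run is no count of independent genes. Dox (+) had at most 5.81 RPKM over this run. A run of keratins on chromosome 11 behaved differently in the second knock-in culture. Krt14, a keratin of basal epidermis, had 32.8 RPKM in MEF and 2.12 RPKM in Dox (-) and 26.9 RPKM in Dox (+), and Krt19 had 82.5 RPKM in MEF and 7.23 RPKM in Dox (-) and 52.3 RPKM in Dox (+). The call of Krt14 was lost with all exons summed. The highest exons of Krt14 and its neighbor Krt9 both had 96 reads in MEF, 0 in Dox (-) and 77 in Dox (+). Reads may thus be shared among these keratins, and their separate levels are uncertain. Cdh1, E-cadherin of epithelial cells, had 21.7 RPKM in MEF and 1.08 RPKM in Dox (-) and 0.697 RPKM in Dox (+). Of 14 epithelial genes, with summed levels of 262 RPKM in MEF and 136 RPKM in Dox (-), 3 were called lower and 0 higher. The 3 were Krt14, Krt19 and Cdh1, and the defining marker Epcam had 1.68 and 0.988 RPKM. A further run of 8 lower genes around Zfp970 on chromosome 2 had nearly the same number of reads on the highest exon of every member. In MEF, Zfp970 had 29345 reads on an exon of 3 bp, listed at 217370 RPKM. Gm16363 had 29362 reads on an exon of 877 bp, listed at 744 RPKM. The levels of this run are uncertain for that reason.

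**Figure D5:**
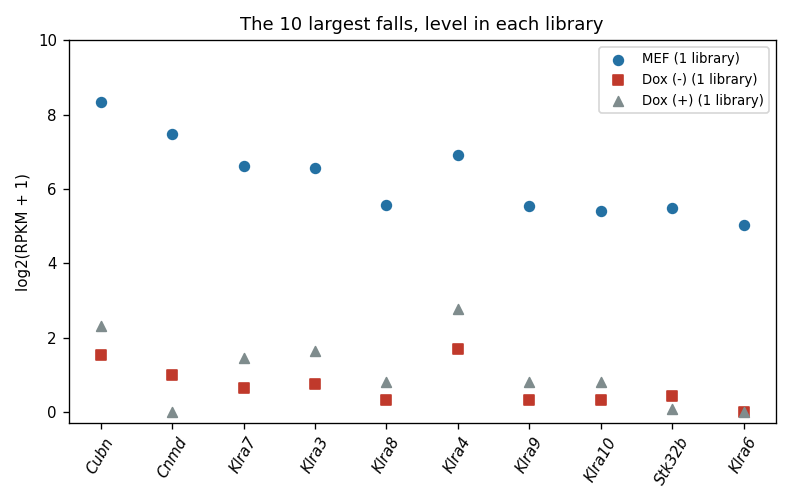
Levels of the 10 named genes with the largest falls in MEF (circles), Dox (-) (squares) and Dox (+) (triangles), as log2(RPKM + 1) on the y axis, 1 library each. The MEF values lie between 31.5 and 325 RPKM, and the Dox (-) values at or below 2.22 RPKM.

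Other cell types were read from their marker lists. Of 15 neural and glial genes, 3 were called higher, among them Fabp7 and Gfap, markers of glia, and Stmn2, a neuronal microtubule protein, was called lower. Fabp7 had 1.96 RPKM in MEF and 144 RPKM in Dox (-), and Gfap 0.176 RPKM in MEF and 50 RPKM in Dox (-). The call of Gfap was lost with all exons summed. Sox10, which defines the neural crest glia, had 0.0514 RPKM in MEF and 6.69 RPKM in Dox (-) and stayed under the threshold. The summed level of the list was 1356 RPKM in MEF, nearly all of it Stmn2, and 505 RPKM in Dox (-). Stmn2 had 1271 RPKM in MEF and 67.8 RPKM in Dox (-). Among neuronal genes, Elavl3 was listed at 0 in both, and Elavl4 at 0 in MEF and 0.684 RPKM in Dox (-). Of 14 endothelial genes measured, 5 were tested, and Flt1, Kdr and Eng were called higher, and the summed level was 164 RPKM in MEF and 261 RPKM in Dox (-). Flt1, a receptor for VEGF, had 3.77 RPKM in MEF and 109 RPKM in Dox (-), and Kdr, the main VEGF receptor, had 0.889 RPKM in MEF and 10.7 RPKM in Dox (-), a call lost with all exons summed. The defining markers Pecam1 and Cdh5 had 0.966 and 1.09 RPKM in Dox (-). None of the 12 pluripotency genes reached 10 RPKM in either library, and Nanog had 2.38 RPKM in MEF and 1.53 RPKM in Dox (-).

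Contractile genes were read as lists of smooth and skeletal muscle. Of 14 smooth muscle genes, 12 were tested and 3 called higher, beside 8.26% of all tested genes. Myh11, the smooth muscle myosin, had 1.75 RPKM in MEF and 129 RPKM in Dox (-), Mylk, the kinase that activates it, had 6.06 RPKM in MEF and 122 RPKM in Dox (-), and Actg2 had 167 RPKM in MEF and 1329 RPKM in Dox (-). Acta2 and Tagln, which cultured fibroblasts make in quantity, were level, with log2 fold changes of 0.32 and -0.31. Of 14 skeletal muscle genes, 1 was called higher. Des, desmin, an intermediate filament of muscle, had 11.6 RPKM in MEF and 571 RPKM in Dox (-) and 1805 RPKM in Dox (+). The factors that drive skeletal muscle were near 0 in Dox (-), with Myod1 at 0 and Myog at 0.102 RPKM. Of 9 adipocyte genes, 7 were tested and 3 called higher, among them Lpl, lipoprotein lipase, with 2.22 RPKM in MEF and 81.7 RPKM in Dox (-), and the fatty acid transporter Cd36, which macrophages also carry, with 0.123 RPKM in MEF and 71.9 RPKM in Dox (-). Pparg, the master factor of fat cells, had 17.3 RPKM in MEF and 12.1 RPKM in Dox (-).

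Proliferation genes lay below 0 together without reaching the call. Of 34 cell cycle genes, 28 had a log2 fold change below 0, the median was -0.72, and 1 was called higher. Over all 13234 tested genes, 6501 were below 0. The ATF4 stress list lay as low, with 15 of 16 genes below 0 and a median of -0.71. Mki67, the proliferation marker Ki-67, had 80.4 RPKM in MEF and 61.3 RPKM in Dox (-), Top2a, the topoisomerase of mitosis, had 211 RPKM in MEF and 114 RPKM in Dox (-), and Ccnb1, cyclin B1, had 60.7 RPKM in MEF and 28.2 RPKM in Dox (-). The exception called higher was Ccnd2, cyclin D2, with 154 RPKM in MEF and 698 RPKM in Dox (-), a call lost with all exons summed. Rrm2, which makes deoxynucleotides for replication, was level, with 116 RPKM in MEF and 114 RPKM in Dox (-). In the p53 and senescence list, 4 of the 23 tested genes were called higher and 0 lower, beside 8.26% higher over all tested genes. Cdkn1a, the cell cycle inhibitor p21, had 192 RPKM in MEF and 1019 RPKM in Dox (-) (interval of the read ratio 4.92 to 5.72), and 1602 RPKM in Dox (+). Mdm2, which degrades p53, was below the call, with 152 RPKM in MEF and 525 RPKM in Dox (-). Cdkn2a, the locus of p16 and p19 that rises as MEFs are passaged, had 112 RPKM in MEF and 173 RPKM in Dox (-), and the proapoptotic gene Bax was level, with 989 RPKM in MEF and 983 RPKM in Dox (-). Passage differed between the libraries, and its part in these values cannot be told apart.

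Metabolic lists held few or no called genes. In the cholesterol, glycolysis and hypoxia, ATF4 stress and NRF2 lists, 0 of the 70 tested members were called, with median log2 fold changes of -0.26, -0.66, -0.71 and 0.15. Furthest below 0 was Phgdh, the first enzyme of serine synthesis, with 571 RPKM in MEF and 162 RPKM in Dox (-). Psat1, of the same pathway, had 2119 RPKM in MEF and 628 RPKM in Dox (-). Of 25 lysosome genes, all tested, Ctsb, cathepsin B, was called higher, with 1198 RPKM in MEF and 4929 RPKM in Dox (-), and lost the call on rescaling. Ctsl, cathepsin L, was lower by less than 4-fold, with 7014 RPKM in MEF and 3736 RPKM in Dox (-). Of 12 housekeeping genes, 0 were called and the median log2 fold change was -0.37, or -0.52 on rescaling, which moved the median of all tested genes to -0.14. Actb had 4689.9 RPKM in MEF and 5067 RPKM in Dox (-), and Gapdh 3439 RPKM in MEF and 2192 RPKM in Dox (-). Among 18 immediate early genes, only Egr2 was called, with 2.39 RPKM in MEF and 16 RPKM in Dox (-), a call lost with all exons summed, and Fos had 25.1 RPKM in MEF and 61.5 RPKM in Dox (-). Of 22 imprinted genes measured, 18 were tested, and Igf2, Plagl1 and Nnat were called higher. Plagl1, a zinc finger factor of the imprinted network, had 46.02 RPKM in MEF and 337 RPKM in Dox (-), and lost the call with all exons summed. H19, next to Igf2, had 3783 RPKM in MEF and 7519 RPKM in Dox (-), and 11 of the 22 lay above 0 and 11 below.

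Ribosomal protein genes lay below 0 as a set, an observation made after the values were seen. Of 82 tested, 80 had a log2 fold change below 0 and the median was -0.95, with 1552 RPKM in MEF as the median level and 901 RPKM in Dox (-). This was not particular to them, as 3 other families read in the same way were mostly below 0 too. These were the respiratory chain (89 of 111 genes, median -0.31), the proteasome (32 of 38, median -0.39) and the chaperonin (6 of 6, median -0.64). The 17 tested replication histone genes, also chosen after their values were seen, were above 0 without exception, with a median log2 fold change of 1.62. Their transcripts mostly lack the poly(A) tail by which the libraries were selected. The libraries also differed in how reads lay along genes. Over coding genes with at least 6 exons, the exons were cut into 3 equal groups along the gene, and the median log2 ratio of the first group to the last was -1.07 in MEF and -0.74 in Dox (-), so that MEF had more of its reads toward the 3′ end. The part of this difference in the results was not tested.

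Of 5 sex-linked genes, 3 were called higher. Xist, the RNA that coats the inactive X chromosome, had 0.0177 RPKM in MEF and 178 RPKM in Dox (-), with 0 and 1245 reads on its highest exon. Genes of the Y chromosome were present in both. Ddx3y had 31.04 RPKM in MEF and 127 RPKM in Dox (-), Eif2s3y 12.9 RPKM in MEF and 55.9 RPKM in Dox (-), and Uty 33.6 RPKM in MEF and 23.5 RPKM in Dox (-). Ddx3y and Eif2s3y lay at the 4-fold line and lost the call on rescaling, while Kdm5d, with 0.711 RPKM in MEF and 8.71 RPKM in Dox (-), was below the threshold. The Dox (-) library thus held both Xist and Y transcripts, and the MEF library Y transcripts with almost no Xist. The kit does not mark strand, so reads from the antisense gene Tsix would be counted on Xist.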

How the data were processed

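RNA was sequenced from MEF and Dox (-) cells with a poly(A)-selecting kit that does not mark strand, 1 library each. According to the study's methods and the labels, the authors aligned reads with TopHat2 2.0.10 to mm10, counted those over each Ensembl exon with bedtools and made the RPKM of every exon that was deposited. The rule by which exons entered the table is not given in the sources used here. Columns were assigned by name, and 1 column of per-sample values whose name matched no label was not used, so PMel was not analysed here. Of 234718 exons, 228132 matched GENCODE release M21, and 226463 of protein coding, pseudogene or lincRNA genes were kept, 22835 genes in all. Because overlapping reads were counted on short exons too, the highest exon of a gene can be very short and its RPKM overstated.

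Reads were recovered as RPKM times exon length and a whole-number depth, searched from 20 to 80 megareads, which made 97.2% of values under 200 reads whole within 0.02 reads in MEF and 96.97% in Dox (-). No normalization was added. The floor was 3 reads, and folds against 0 reads on the exon compared are given against it. The groups have 1 sample, so no test was run. The named genes are the 10 largest rises and 10 largest falls among called genes with a proper symbol and with at least 2 exons of 10 reads or more, at least 2 in 3 of them differing over 4-fold alike, together with Mitf and the called and highest members of 35 gene lists. Runs of neighbors, members of gene families and Trdmt1 were chosen after the values were seen. So were the ribosomal protein, respiratory chain, proteasome, chaperonin and histone genes. Some list members are not reported here by name. The members and lists were chosen with earlier results of these data known. Of 719 list genes, 702 were found, 147 called higher and 8 lower. Promoters came from RefSeq on GRCm38.p6, the same build. The steps were tested on simulated data, in which 100 of 100 raised and 100 of 100 lowered genes (8-fold) and 5 unchanged ones among 12072 were called. Both simulated libraries were drawn from the MEF reads with counting error only. They held no variation between cultures, so the 5 give no rate of false calls for the real comparison. Python 3.11.15, pandas 2.3.3, NumPy 2.4.6, SciPy 1.17.1 and matplotlib 3.10.9 were used.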

Additional observations from a re-analysis of the deposited data

How the results depend on the processing

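Thresholds, pseudocount, exon choice and scaling were each varied, and the cause of a change was not tested beyond the construction of the alternative. The counts of genes higher and of genes lower were 2236 and 354 from 1 RPKM upward, 667 and 100 at 30 RPKM, 2285 and 1049 at a fold above 2, 718 and 77 at a fold above 8, 718 and 89 with a pseudocount of 5 RPKM in the call, and 669 and 96 with all exons summed, where a gene's level is lower and fewer genes were tested. With the same exon in both libraries the counts were 1169 and 195, with exons of at least 100 bp 898 and 129, and with the libraries rescaled to the same median 1014 and 208. Rescaling moved the median log2 fold change of tested genes from 0.01 to -0.14. Higher genes were 87.2% of the called genes, and 68.5% at a fold above 2. Distinct list members called lower numbered 8, and 42 at a fold above 2. The median of the imprinted list turned from 0.01 to -0.0389 with all exons summed. Of 170 called genes from the lists and the largest changes, 163 were called alike on rescaling, 160 with exons of at least 100 bp, 133 with all exons summed and 170 with the same exon in both libraries. Mitf was among those lost with all exons summed. Single genes were compared over the alternatives in exon choice, scaling and the pseudocount of the log2 fold change. There, 697 log2 fold changes stayed within the counting interval of the reported value and 153 left it. Where 1 library had 0 reads on the highest exon, any smaller change was counted as leaving it. Over the alternatives other than that pseudocount, 552 counts of called list members stayed within 1.5 times while 96 did not. No paired analysis was possible because each condition has 1 library, and no library could be left out for the same reason. Depth limits statements on genes at or under 3 reads on an exon.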
